A study of Mus musculus with 6 samples.

Results

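The natriuretic peptide system of the mouse heart was followed through 8 genes, namely the peptide genes Nppa, Nppb and Nppc, the receptor genes Npr1, Npr2 and Npr3, and Corin and Furin, which encode enzymes that process the peptide precursors. They were chosen by gene symbol in the platform annotation, which lists each of them at 1 probe set, so that 8 of 35556 probe sets are described. Total RNA from hearts of 3-month-old male mice, wild-type (WT) or VAChT KD, had been hybridised to 6 Mouse Gene 1.0 ST arrays, 3 for each genotype, with 2 RNA samples pooled for every array. VAChT KD mice are homozygous for an allele that lowers the vesicular acetylcholine transporter throughout the body, so that the parasympathetic nerves and any other cells that release acetylcholine are affected together. Neither group received a treatment. The labels name heart and C57BL/6. The methods describe ventricular RNA, and mice of mixed background that had been crossed to C57BL6/j for 3 generations. The comparison asks whether long-term low cholinergic tone goes with a change in the genes by which a strained heart signals its load.

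Atrial and B-type natriuretic peptides, encoded by Nppa and Nppb, are hormones of the cardiac myocyte. Their precursors are cut by corin, a protease on the myocyte surface, and by furin, a protease of the secretory pathway, and the peptides act on the guanylate cyclase receptor encoded by Npr1 to raise cyclic GMP, which relaxes vessels and increases the excretion of salt and water. C-type natriuretic peptide, from Nppc, acts mainly within tissues through the related receptor encoded by Npr2, and the receptor encoded by Npr3 binds all of these peptides and removes them. In the adult heart Nppa is expressed mostly in atria and Nppb in both chambers, and both rise in ventricles under load, for which reason they are widely used as markers of cardiac stress.

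Nppb and Nppa lie next to each other on mouse chromosome 4, with no other gene starting between them in the RefSeq table of assembly GRCm38.p6. Sequences from their promoter windows are shown because the factors that are known to act on them were measured on the same arrays. Capitals mark matches, on either strand, to TATAAA (the TATA box) and GATA (core site of GATA factors). They also mark CATTCC (the M-CAT element bound by TEAD factors) and AAGTG (core of NKX2-5 sites). Sites of T-box factors were not searched. The sequences are from RefSeq, build GRCm38.p6, plus strand, and the Nppa window holds the 250 bases before its start. In the RefSeq table the Nppb gene begins within its window of 250 bases, so only short stretches of that window are printed. Whether these stretches lie before the first annotated base of Nppb was not checked. No 2 of the marked matches overlap.
Nppa, chr4:148000472-148000721: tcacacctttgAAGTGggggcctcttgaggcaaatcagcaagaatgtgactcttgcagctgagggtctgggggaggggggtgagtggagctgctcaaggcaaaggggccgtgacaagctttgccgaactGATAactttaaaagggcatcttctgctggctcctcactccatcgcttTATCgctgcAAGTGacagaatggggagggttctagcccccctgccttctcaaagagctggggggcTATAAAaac
Nppb, chr4:147985793-147985822: caGGAATGcagctGATAaatcagaGATAac
Nppb, chr4:147985857-147985886: actcagccccagTATAAAaggcagaggcac

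In the 250 bases before the start used for each promoter window, the GATA core occurred at 2 places in Nppa and 2 in Nppb. Of 32851 promoters of the same length, 53.6% hold it. The TATA box was found in 12.4% of them, CATTCC, which Nppb holds once on the minus strand, in 12.6%, and AAGTG, which Nppa holds at 2 places, in 40.7%. AP-1 sites (TGANTCA, in 6.75% of promoters) and the CArG box of serum response factor (1.47%) were searched as well and had no match in the windows of the 8 genes. Nppc and 1 of the 2 annotated starts of Furin also held a TATA box, the latter with GATA and AAGTG cores, and the windows of Npr1, Npr2, Npr3 and Corin held none of these letters. These matches describe the sequence alone.

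The labels were first set against the data. Slc18a3, which encodes VAChT, read 7.31, 7.42 and 7.11 (log2 signal) on WT 1, 2 and 3 and 7.24, 6.77 and 7.58 on VAChT KD 1, 2 and 3, so that it did not separate the groups. At Ogdhl, the array labelled WT 2 read 7.21, with 7.06 and 7.09 on VAChT KD 1 and 3, whereas the array labelled VAChT KD 2 read 10.2, with 9.60 and 10.3 on WT 1 and 3. Both arrays numbered 2 therefore lay with the opposite group at that gene. The Ogdhl difference was -0.94 (standard error 1.03) with the labels as given and -2.89 without both arrays numbered 2. Whether the labels of these 2 arrays are exchanged was not tested. If they are, every comparison of all 6 arrays mixes the genotypes. The arrays are named by their labels throughout, and the difference of each of the 8 genes is also given without both arrays numbered 2. On VAChT KD 1 the brightest probe sets were compressed, with a median of 0.99 (log2) below the other 5 arrays for the 65 probe sets at 14 to 15. On VAChT KD 3, 7 of 9 atrial markers were at their highest and 2 at their lowest, as described with Nppa. Of the ventricular markers, the myosin light chain Myl2 read 13.2 to 13.6 on the 6 arrays, whereas Hey2 and Kcne1 read 7.48 to 8.04.

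With all 6 arrays and the labels as given, no gene of the natriuretic system passed a threshold for a difference between VAChT KD and WT. The adjusted p of the 8 genes lay between 0.485 and 0.914 (limma, Benjamini-Hochberg over all probe sets, n = 3 arrays in each group), and none passed an unadjusted p of 0.05, which 11.7% of all probe sets passed. Nor did any reach 1.3-fold together with that p, the thresholds the study used, as 3.79% of all probe sets did, or an adjusted p of 0.05, as 0.00281% did. The differences ran from -0.22 for Nppc to 0.16 for Nppa on the log2 scale, with 3 of 8 below 0. Their median was 0.03, against -0.02 over all probe sets. The groups did not overlap at 1 of the 8, Corin, and at 19.2% of all probe sets. With 3 arrays against 3, an exact permutation test cannot give a two-sided p below 0.1. As the tissue was measured in bulk, fewer cells of a type and less RNA per cell cannot be told apart.

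**Figure D1:**
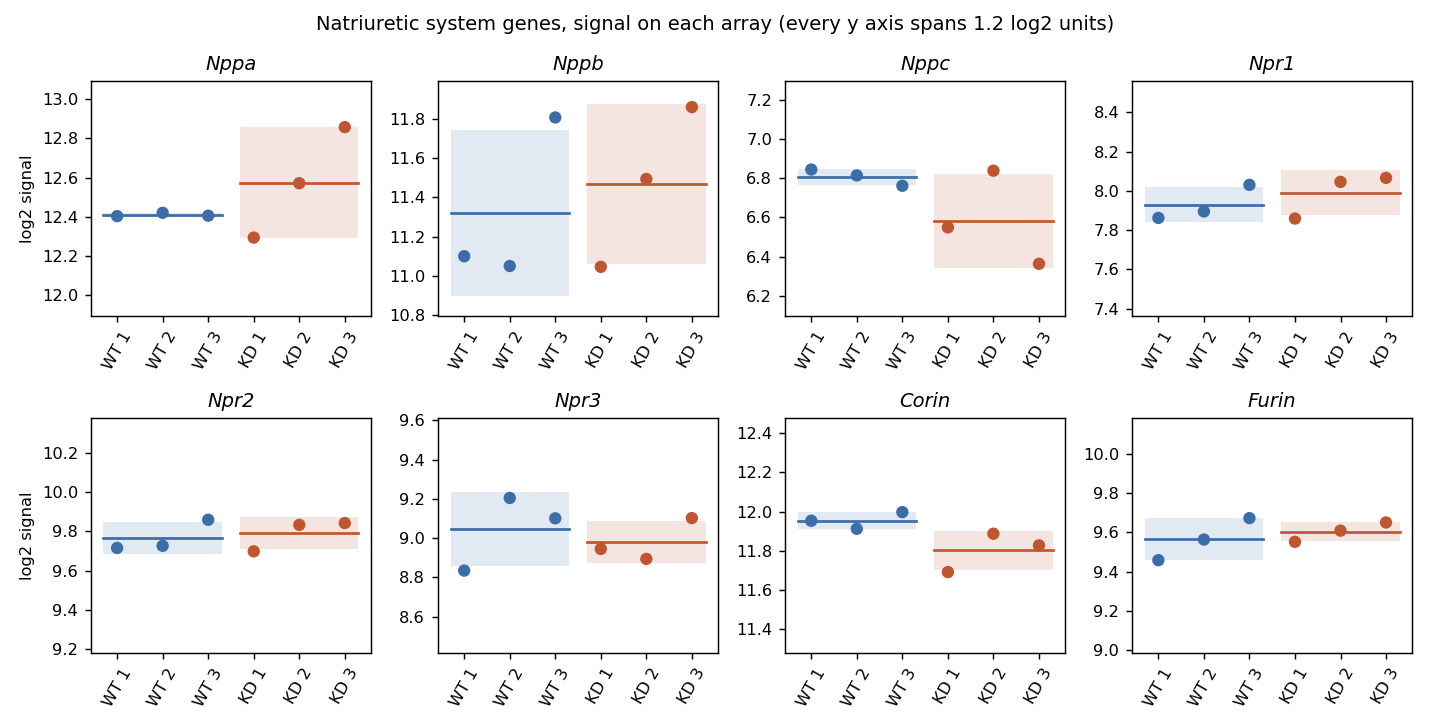
Log2 signal of the 8 genes (vertical axes, each spanning 1.2 log2 units) on each array, with WT in blue and VAChT KD in orange; lines are group means and bands the SD of 3 arrays. Corin, at 11.9 to 12.0 in WT and 11.7 to 11.9 in VAChT KD, is the gene whose groups, as labelled, do not overlap. Nppb has the widest spread within both groups.

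Nppa, the gene of atrial natriuretic peptide, read 12.40, 12.42 and 12.41 on WT 1, 2 and 3 and 12.30, 12.57 and 12.86 on VAChT KD 1, 2 and 3 (log2 signal). The WT arrays were nearly equal, while the VAChT KD arrays lay on both sides of them. The means were 12.41 ± 0.01 in WT and 12.58 ± 0.28 in VAChT KD (SD, n = 3 each). VAChT KD was higher by 0.16 with a standard error of 0.14 (adjusted p = 0.615 from limma). As a fold this is 1.12, with a 95% interval of 0.895 to 1.40. The upper end of the interval exceeds 1.3-fold, so a rise of that size could not be told from none with these arrays.

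The difference at Nppa rested on the array VAChT KD 3. Without it the difference was 0.02 (standard error 0.11), and without VAChT KD 1 it was 0.30 (standard error 0.11, unadjusted p = 0.0332 and adjusted p = 0.518, both from limma). Without both arrays numbered 2 it was 0.17. With VAChT KD 1 left out, 3420 of 35556 probe sets passed an unadjusted p of 0.05 in limma. VAChT KD 3 also carried the highest signal of 7 of the 9 measured atrial markers, and the lowest of the other two, Clec3a and Dhrs9. The median probe set at a log2 signal of 8 to 13 was itself 0.08 to 0.11 higher on that array than on the other 5, and the part of this shift was not tested. Bmp10, a growth factor of the atrial wall, read 7.43 there and 5.19 to 5.64, below background, on the other 5 arrays. Myl7, the atrial regulatory myosin light chain, read 11.1 there and 9.90 to 10.6 on the others. Sarcolipin (Sln), which inhibits the calcium pump in atria, read 7.55 against 6.80 to 7.04, and Mybphl, a myosin-binding protein of atria, 8.33 against 7.54 to 7.89. The whole list had a mean log2 signal of 8.21 to 8.38 in WT and 8.31 to 8.82 in VAChT KD, and no marker was at 0. Of this list none passed an unadjusted p of 0.05, and the part of atrial tissue in the Nppa values was not tested. The smallest p of the list belonged to Myl7 (difference 0.40, adjusted p = 0.478), Clec3a (-0.19, adjusted p = 0.501) and Dhrs9 (-0.14, adjusted p = 0.527, limma), the last of which read below background.

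**Figure D2:**
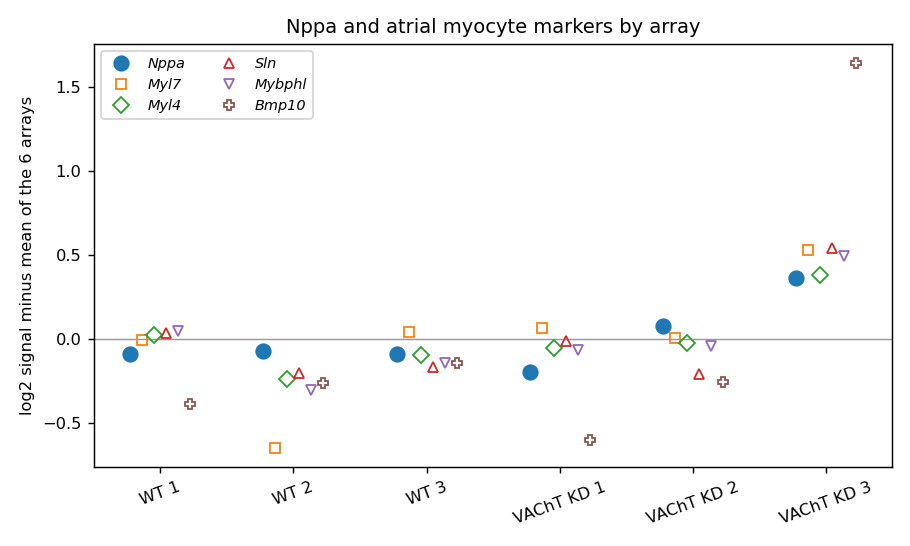
Log2 signal of Nppa (filled circles) and 5 atrial myocyte markers (open symbols) on each array, as the difference from the gene's mean over the 6 arrays (vertical axis). On VAChT KD 3 the 6 genes drawn are at their highest, Bmp10 at 7.43 and Nppa at 12.86, while Clec3a and Dhrs9, not drawn, are at their lowest. Bmp10 is below background on the other arrays.

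Nppb, the gene of B-type natriuretic peptide, varied most between arrays. It read 11.10, 11.05 and 11.81 on WT 1, 2 and 3 and 11.05, 11.49 and 11.86 on VAChT KD 1, 2 and 3 (log2 signal). WT 3 and VAChT KD 3 were high, WT 1, WT 2 and VAChT KD 1 were low, and the groups overlapped almost fully. The highest array exceeded the lowest by 1.76-fold. The SD within groups, 0.42, was larger than that of 99.6% of the 14475 probe sets with 1 gene symbol and a signal above background, taken as the 95th percentile of the olfactory receptor probe sets, 6.503. Between the groups Nppb differed by 0.15 (standard error 0.26, limma adjusted p = 0.817), a fold of 1.11 with an interval of 0.727 to 1.69. The difference was 0.39 without WT 3, 0.36 without VAChT KD 1, -0.05 without VAChT KD 3 and 0.00 without both arrays numbered 2, so that its direction was not settled.

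Across arrays, Nppb and Nppa were not the same pattern. The WT arrays spanned 0.01 around their mean (SD) at Nppa and 0.42 at Nppb, and WT 3, among the highest at Nppb, lay between the other WT arrays at Nppa. Pearson's r between these neighbouring genes was 0.69 over the 6 arrays. Nppb was closer to both guanylate cyclase receptor genes, with r of 0.93 to Npr1 and 0.96 to Npr2, and of 0.85 to Furin. These values are descriptions over 6 arrays that also share genotype and normalization.

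**Figure D3:**
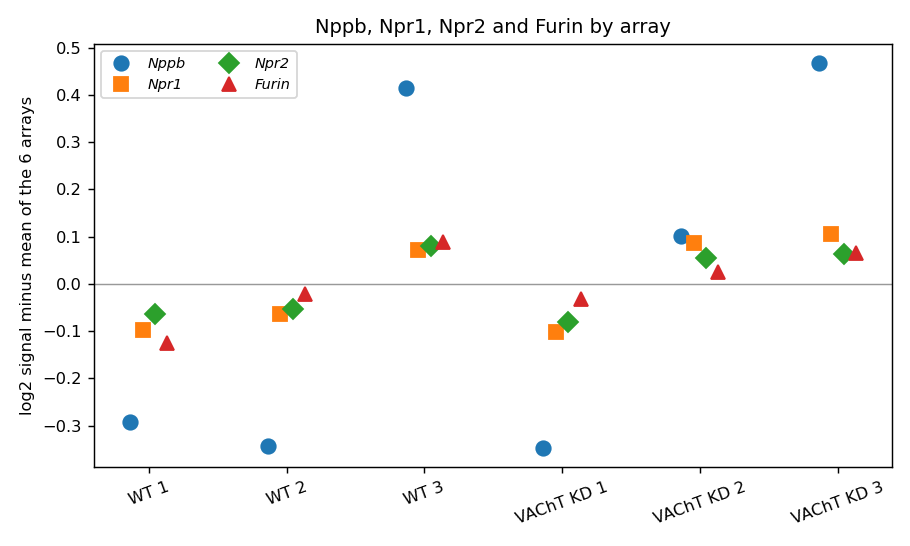
Log2 signal of Nppb, Npr1, Npr2 and Furin on each array, as the difference from the gene's mean over the 6 arrays (vertical axis). All 4 genes are higher on WT 3, VAChT KD 2 and VAChT KD 3 than on WT 1, WT 2 and VAChT KD 1, and Nppb covers the widest range.

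The arrays WT 3, VAChT KD 2 and VAChT KD 3 were the 3 highest for Nppb and also for Npr1, Npr2 and Furin, that is at 4 of the 8 genes. Nppb defined this order after its values were seen, so 3 of the other 7 share it, and it was present at 14.9% of the named probe sets above background. It cuts across genotype. The mean of those 3 arrays exceeded the mean of the others by 0.66 for Nppb, 0.18 for Npr1, 0.13 for Npr2 and 0.12 for Furin (log2). At 9 to 10, the range of Npr2 and Furin, the median probe set was 0.01 to 0.11 higher on each of those 3 than on the other 5 arrays. There it was 0.01 to 0.12 lower on WT 1, WT 2 and VAChT KD 1. At 7 to 8, the range of Npr1, and at 11 to 12, that of Nppb, the median probe set did not have this order. The part of this shift was not tested. Of the 23 transcription factors listed for the Nppa and Nppb promoters, 8 had the same order, as had 4 of 10 endothelial markers, 4 of 10 ventricular markers and 3 of 10 markers of fibroblasts and smooth muscle. The order was found at 4 of 18 effectors of cyclic GMP, 2 of 7 enzymes that make it, 3 of 17 stress and fetal genes and 2 of 12 convertases and peptidases. It was found at 1 of 7 other ligands, 1 of 9 atrial markers and 0 of 6 epicardial markers.

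Npr1, which encodes the receptor for the peptides of Nppa and Nppb, read 7.86, 7.90 and 8.03 on WT 1, 2 and 3 and 7.86, 8.05 and 8.07 on VAChT KD 1, 2 and 3. The lowest arrays of both groups were equal at this precision. It differed by 0.06 (standard error 0.09, limma adjusted p = 0.786), a fold of 1.04 with a 95% interval of 0.897 to 1.21. With all 6 arrays the interval lies within 1.3-fold in both directions.

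Npr2, the receptor for C-type natriuretic peptide, read 9.72, 9.73 and 9.86 on WT 1, 2 and 3 and 9.70, 9.83 and 9.84 on VAChT KD 1, 2 and 3. The groups covered almost the same range, and the difference was 0.02 (standard error 0.08, limma adjusted p = 0.914). The interval of the fold was 0.886 to 1.17 with all 6 arrays. Without both arrays numbered 2 the differences were 0.02 for Npr1 and -0.02 for Npr2.

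Npr3, the clearance receptor, which lacks the guanylate cyclase domain, read 8.83, 9.20 and 9.10 on WT 1, 2 and 3 and 8.94, 8.89 and 9.10 on VAChT KD 1, 2 and 3. WT 1 was the lowest and WT 2 the highest of all 6 arrays. The spread in WT, an SD of 0.19, exceeded the difference, which was -0.07 (standard error 0.12, limma adjusted p = 0.816). Its fold was 0.955, with an interval of 0.791 to 1.15. The sign turned without WT 2, to 0.01, and without both arrays numbered 2, to 0.06. Npr3 did not share the order of the other receptors, with r of 0.25 to Npr1 and 0.25 to Npr2 over the 6 arrays. Markers of endocardium and endothelium, where Npr3 is expressed in the heart, had a mean log2 signal of 9.69 to 9.87 in WT and 9.66 to 9.83 in VAChT KD, and none of the 10 passed an unadjusted p of 0.05 in limma. Those with the smallest p were Plvap at -0.15, Kdr at 0.10 and Egfl7 at -0.08.

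Nppc, the gene of C-type natriuretic peptide, read 6.84, 6.81 and 6.76 on WT 1, 2 and 3 and 6.55, 6.84 and 6.36 on VAChT KD 1, 2 and 3. VAChT KD 1 and 3 were below all WT arrays and VAChT KD 2 lay among them. Its mean, 6.69, was close to the background of 6.503, and VAChT KD 3 lay below that background. The difference was -0.22 (standard error 0.12, limma adjusted p = 0.489), a fold of 0.857 with an interval of 0.700 to 1.05. Without VAChT KD 2 it was -0.35 (unadjusted p = 0.0126, adjusted p = 0.457), and without both arrays numbered 2 it was -0.35 (unadjusted p = 0.0376, adjusted p = 0.466, all from limma). An unadjusted p of 0.05 was passed by 3876 of 35556 probe sets without VAChT KD 2, and by 10.6% without both arrays numbered 2. Without VAChT KD 3 the difference at Nppc was -0.11. In the signal range of 6 to 7 the median probe set was 0.16 higher on WT 1 and 0.12 lower on VAChT KD 3 than on the other 5 arrays, and the part of this shift in the Nppc values was not tested.

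Corin, the myocyte protease that cuts the precursor of atrial natriuretic peptide, read 11.95, 11.91 and 12.00 on WT 1, 2 and 3 and 11.69, 11.89 and 11.83 on VAChT KD 1, 2 and 3. Each VAChT KD array lay below each WT array, though VAChT KD 2 and WT 2 were 0.02 apart. Those 2 arrays lay with the opposite group at Ogdhl, so the absence of overlap and the permutation p given below depend on their labels. Groups without overlap and with VAChT KD lower were found at 12.9% of all probe sets. The means were 11.95 ± 0.04 and 11.80 ± 0.10 (SD, n = 3 each). VAChT KD minus WT was -0.15 with a standard error of 0.08 (adjusted p = 0.485 from limma). The exact permutation test gave a two-sided p of 0.1, the smallest it can give. The fold was 0.900, with a 95% interval of 0.786 to 1.03.

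The lowest Corin value was on VAChT KD 1, the array on which bright probe sets were compressed. There Corin lay 0.22 below the mean of the other 5 arrays, and the median of the 889 probe sets at a log2 signal of 11 to 12 lay 0.10 below. Without VAChT KD 1 the difference at Corin was -0.10 (standard error 0.09), and without both arrays numbered 2 it was -0.22 (standard error 0.12). Nppa lay in the next brighter range, 12 to 13, in which the median probe set on VAChT KD 1 was 0.18 below the others and Nppa 0.24 below. The part of this compression in both genes was not tested.

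**Figure D4:**
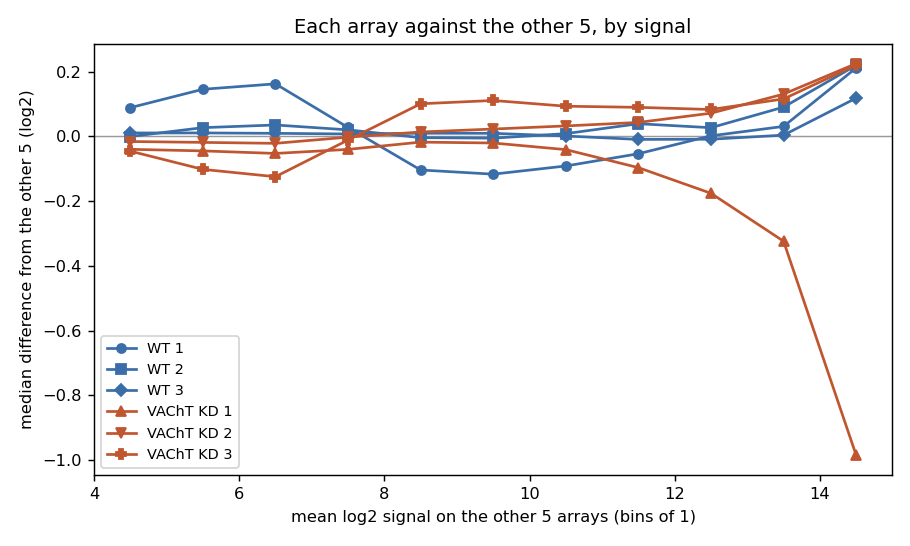
Median difference in log2 signal between each array and the mean of the other 5 (vertical axis) for probe sets binned by their mean signal on those 5 (horizontal axis), with WT in blue and VAChT KD in orange. VAChT KD 1 falls by 0.10 at 11 to 12, the range of Corin, and by 0.99 at 14 to 15.

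Furin, the convertase that cuts the precursor of B-type natriuretic peptide, read 9.46, 9.56 and 9.67 on WT 1, 2 and 3 and 9.55, 9.61 and 9.65 on VAChT KD 1, 2 and 3. All VAChT KD arrays lay within the range of WT. The difference was 0.04 (standard error 0.09, limma adjusted p = 0.856), a fold of 1.03 with a 95% interval of 0.894 to 1.18. Without WT 1, the lowest array, it was -0.01, and without both arrays numbered 2 it was 0.04 (standard error 0.13). The median probe set at 9 to 10 was 0.12 lower on WT 1 than on the other 5 arrays, and its part was not tested.

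**Figure D5:**
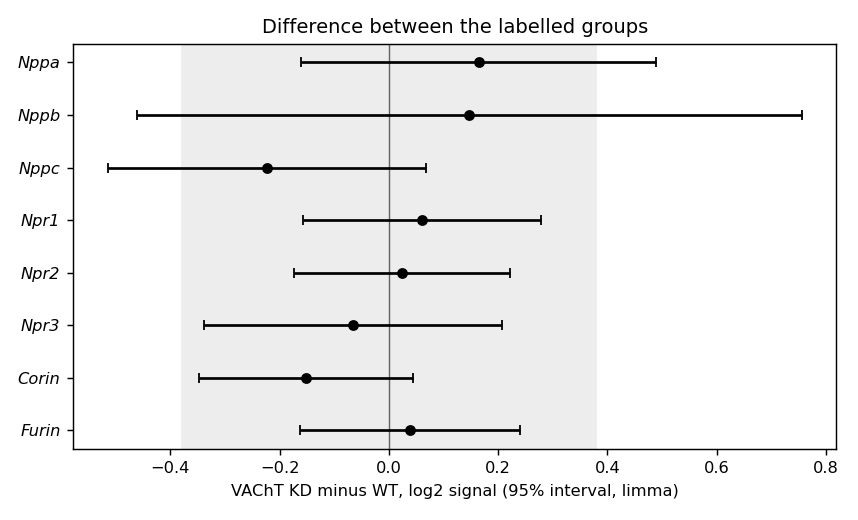
Difference in log2 signal between VAChT KD and WT (horizontal axis) for the 8 genes, with 95% intervals from limma; the grey band marks differences below 1.3-fold. Every interval crosses 0, and those of Npr1, Npr2, Npr3, Corin and Furin stay within the band.

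The other genes of the pathway were described from lists of related functions. Among 12 measured convertases and peptidases, none passed an unadjusted p of 0.05 in limma. They include Mme, neprilysin, which degrades natriuretic peptides, at 0.11 (standard error 0.09), and the convertases Pcsk4 at -0.22 and Pcsk1, which read below background, at -0.25. Pcsk6, which activates corin, differed by -0.01 (standard error 0.09). The median of this list was -0.02.

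Of 7 other peptide ligands and granule proteins, 2 passed an unadjusted p of 0.05 in limma, which 11.7% of all probe sets passed, and both were lower in VAChT KD. These were Guca2b, the guanylate cyclase activator uroguanylin, at -0.30 (standard error 0.09, adjusted p = 0.409), and Chga, chromogranin A, at -0.24 (standard error 0.09, adjusted p = 0.409). Osteocrin (Ostn), a ligand of the clearance receptor, was listed at 4.50 to 4.93, below background, and differed by -0.22. Pam, which is abundant in atrial granules, differed by 0.00 (standard error 0.08). The list's median was -0.20. It ran from -0.24 to -0.11 over the alternatives, and was -0.11 with array weights, -0.12 without WT 1 and -0.13 without VAChT KD 3. Of its 7 genes 3 were above background. In the range of 5 to 7 the median probe set was 0.15 to 0.16 higher on WT 1 than on the other 5 arrays, and the part of this shift was not tested.

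Among the 7 other enzymes that make cyclic GMP, 1 passed an unadjusted p of 0.05, against 11.7% of all probe sets. It was Gucy2d, a membrane guanylate cyclase of sensory cells, at -0.24 (standard error 0.09, limma adjusted p = 0.409). In its signal range of 6 to 7 the median probe set was 0.16 higher on WT 1 and 0.12 lower on VAChT KD 3 than on the other 5 arrays. The part of this shift was not tested. The subunits of soluble guanylate cyclase, the target of nitric oxide, differed by 0.09 for Gucy1a1 and 0.10 for Gucy1b1 (standard errors 0.09 and 0.07). Gucy2c, the receptor for uroguanylin, differed by -0.31 and Gucy2g by -0.15, and both read below background on average.

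Of 18 effectors and phosphodiesterases of cyclic GMP, none passed an unadjusted p of 0.05 in limma, and the median difference was 0.03. Prkg1, the cyclic GMP-dependent kinase, differed by 0.08 (standard error 0.08). Those with the smallest p were Pde9a, at -0.19, Pde1a, at 0.14, and Pde3b, at 0.30, all phosphodiesterases. Pde5a differed by 0.06.

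An unadjusted p of 0.05 together with 1.3-fold was passed by 3.79% of all probe sets in limma. Of 23 transcription factors known to act on the Nppa and Nppb promoters, 1 passed both. This was Fos, a subunit of AP-1, which read 7.44 to 7.67 in WT and 6.63 to 7.21 in VAChT KD, so that it differed by -0.55 (standard error 0.16, limma adjusted p = 0.409). The next were Rest, a repressor of fetal cardiac genes, at 0.19 (adjusted p = 0.427), and Myocd, the coactivator of serum response factor, at 0.20 (adjusted p = 0.453). Of the factors that bind the letters shown in capitals, Gata4 differed by -0.01, Nkx2-5 by 0.02 and Tead1 by 0.04 (standard errors 0.09 to 0.10). Tbx5, a T-box factor whose sites were not searched, differed by 0.13 (standard error 0.09). The list's median was 0.04, and 0.10 after median centring of the arrays.

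Among 17 measured stress and fetal genes, which often change with Nppa and Nppb in hypertrophy, Myh7 passed an unadjusted p of 0.05 and 1.3-fold. Both thresholds were passed by 3.79% of all probe sets. Myh7, the gene of the beta myosin heavy chain, read 10.5, 10.1 and 10.1 on WT 1, 2 and 3. On VAChT KD 1, 2 and 3 it read 9.74, 10.1 and 9.39, so that it differed by -0.49 (standard error 0.20, limma adjusted p = 0.414). It was lowest on VAChT KD 3, on which Nppa and Nppb were highest. Acta1, skeletal alpha actin of the fetal program, differed by 0.23 (standard error 0.20) and Ankrd1, a stress-responsive ankyrin repeat protein, by 0.03 (standard error 0.12). Timp1 and Postn, of the matrix, differed by 0.25 and 0.24 and did not pass. The median of the list was -0.03.

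Markers of the other cells of the heart were checked in the same way. Of 10 fibroblast and smooth muscle markers, 1 passed an unadjusted p of 0.05 in limma, Tagln, of smooth muscle, at 0.22 (standard error 0.09, adjusted p = 0.422), followed by Acta2 at 0.27 and Myh11 at 0.13. The ventricular list had a mean log2 signal of 11.9 on 5 arrays and 11.5 on VAChT KD 1, where Tnnt2, Myh6 and other bright genes were low. Its genes Tnnt2, Myh6, Tnni3 and Mybpc3 are also expressed in atrial myocytes, so their values do not tell ventricle from atrium. The smallest adjusted p of the list was 0.605 (limma). Tnnt2 differed by -0.31, Myh6 by -0.26 and Mybpc3 by -0.11. None of the 6 epicardial markers passed, with Krt19 at -0.12, Tbx18 at -0.12 and Upk1b at 0.04. Across all 11 lists beside the 8 genes, 125 genes were measured, of which 1 was higher and 5 lower at an unadjusted p of 0.05, which 11.7% of all probe sets passed, and none passed the adjusted p. Without both arrays numbered 2, 1 was higher and 6 lower at that p, against 10.6% of all probe sets. The differences at that setting were -0.70 for Fos, -0.73 for Myh7, -0.37 for Guca2b and 0.32 for Tagln. Chga and Gucy2d, at -0.28 and -0.29, no longer passed, while Pcsk1 at -0.32, Gucy2c at -0.49 and Chgb (chromogranin B) at -0.40, which all read below background, did.

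The genes whose signal followed that of each member most closely were taken from the named probe sets above background, by Pearson's r over the 6 arrays. For Nppa they were Ggact, Casp8ap2, Timm17b, Snapin and Clic1, with r of 0.991 to 0.997, and their ranges were smaller than that of Nppa, at 0.17 to 0.49 (log2) against 0.56. For Nppb they were Ube2ql1, Pcolce, which enhances procollagen processing, Dhx32, Gpr157 and Gcn1, with r of 0.990 to 0.998 and ranges of 0.18 to 0.37 against 0.81. Those of Npr1 were Itsn1 and Pcnx3, of Npr2 Gnaq and Tsc2, of Npr3 Mthfd2l and Slc38a2, of Nppc Ccrl2 and Ttc24, of Corin Cyb561d1 and Ctse, and of Furin Kif13b and Uck2, with r of 0.985 to 0.998. With 14474 probe sets compared over 6 arrays, values this high are reached for each member.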

How the data were processed

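The authors scanned Mouse Gene 1.0 ST arrays with Command Console 1.1 and applied RMA (Partek Genomics Suite 6.5), which normalizes across arrays. Deposited were log2 signals for 35556 probe sets. Genome build and annotation: not given in the sources used here. The platform annotation lists 21789 probe sets with 1 symbol, updated through a RefSeq table of GRCm38.p6. Groups follow the sample titles.

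The values were tested as deposited with lmFit and eBayes (limma 3.58.1, R 4.3.3), adjusted by Benjamini-Hochberg over all probe sets, a procedure checked on simulated data. Lists use the brightest probe set of a gene. The rule named all members, 3 genes of the smallest p per list, the 5 (Nppa, Nppb) or 2 genes most alike, Slc18a3, Ogdhl, and Myl2, Bmp10, Sln and Mybphl as chamber markers. Pcsk6, Pam, Gucy1a1, Gucy1b1, Prkg1, Pde5a, Gata4, Nkx2-5, Tbx5, Tead1, Acta1, Ankrd1, Hey2, Kcne1 and Chgb were added for their role or value after their values were seen. Members and lists were chosen with earlier results of these data known. Whether pools share animals is not stated, so p-values measure only how far arrays of a group spread, which may be technical, and the number of arrays limits the precision. Alternatives were other scalings, filters and variance models, the methods' ANOVA, the replicate number as a block, and arrays left out.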

Additional observations from a re-analysis of the deposited data

How the results depend on the processing

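No member passed an adjusted p of 0.05 under any of the 15 alternatives, and none passed an unadjusted p of 0.05 with 1.3-fold. The sign of small differences did turn. That of Nppb was -0.049 without VAChT KD 3 and -0.00065 without both arrays numbered 2. That of Npr2 was -0.033 after a further quantile normalization and -0.017 without both arrays numbered 2, and with 1 array left out it ran from -0.0014 to 0.071. That of Npr3 was 0.00012 after median centring and 0.056 without both arrays numbered 2, and with 1 array left out it ran from -0.17 to 0.013. That of Furin was -0.021 after a further quantile normalization, and with 1 array left out it ran from -0.014 to 0.093. With 1 array left out, Nppb ran from -0.049 to 0.39. The cause was not tested. Nppa, Nppc, Npr1 and Corin kept their direction under all 15.

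Over all probe sets, 1348 passed an unadjusted p of 0.05 and 1.3-fold. The count was 581 with the filter on dim probe sets, which tests fewer, 587 with the methods' ANOVA, 2800 without both arrays numbered 2, and 841 (without WT 1) to 2173 (without WT 2) with 1 array left out. At an adjusted p of 0.05 it was 1, against 3 with robust eBayes or array weights and 0 with the filter, the methods' ANOVA, without both arrays numbered 2 and with any 1 array left out. Of the calls at both thresholds 754 were higher and 594 lower, and 1125 and 268 after median centring. Of 165 values for list medians, 13 moved by more than the spread between arrays.

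Deviations of same-numbered arrays from the group means correlated at 0.06, -0.12 and 0.13, and those of differently numbered arrays at -0.21 to 0.18. Whether same-numbered arrays share anything besides the number was not tested. With the replicate number as a block no member passed an adjusted p of 0.05, 0 probe sets did in all, and 1489 passed both thresholds. Each gene has 1 probe set, so averaging probe sets gave no value.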
